A study of Mus musculus with 12 samples.

Results

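The lysosome genes described here are 10 genes of the NanoString nCounter Neuroinflammation panel, taken by name from its 770 genes: the membrane proteins *Lamp1*, *Lamp2* and *Cd68*, the fusion factors *Vamp7* and *Epg5*, the proteases *Ctss*, *Ctse*, *Ctsf* and *Lgmn*, and progranulin, *Grn*. All 10 were present in the table. They were followed across microglia of C57B6 mice in 3 groups. The labels call mice and cells untreated, but the study states that adult and aged mice alike had received tamoxifen, the adults shortly before and the aged mice long before sampling. By its methods the study's Cre mice were hemizygous for *Cx3cr1* CreERT2, a tamoxifen-inducible Cre, and were bred with floxed *Ulk1* mice. Neither source gives the *Ulk1* genotype of these samples. The aged groups came from animals older than 80 weeks and were sorted by phosphorylation of the kinases ERK1/2 at Thr202/Tyr204 into the groups P-ERK1/2 Low (n = 4) and, with the stronger signal, P-ERK1/2 High (n = 4). The adult group came from animals of 12 to 20 weeks and was not separated by ERK1/2 phosphorylation (n = 3). Another adult sample, sample 11, is marked by its label as excluded for poor quality and was left out of the comparisons. By the study's methods each sample pooled the CNS of a male and a female mouse, and the cells were enriched on CD11b beads, fixed, permeabilized and sorted as YFP+, CD45 intermediate and Ly6G-. The YFP reporter is driven by the *Cx3cr1* promoter and is therefore limited to cells in which that promoter has been active. Whether a High and a Low sample came from the same animals is not stated by the labels or methods.

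Lysosomes are the acid compartments in which a cell breaks down what it takes up and what autophagy delivers from its own cytoplasm. Heavily glycosylated membrane proteins such as LAMP1 and LAMP2 line them, SNARE proteins and tethering factors let autophagosomes and endosomes fuse with them, and acid proteases cut the cargo and also activate one another. In microglia, the resident macrophages of the CNS, this route clears debris and myelin, and CD68 staining of its membranes is widely used as a mark of phagocytic activity.

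In the deposited values, *Lamp1* had the largest increase among the 10 in High against Low. The E-box is the palindrome CACGTG, on which basic helix-loop-helix factors of lysosomal genes are known to act. The promoter of *Lamp1* and that of *Lamp2*, its closest relative in the list, are printed with this motif marked. Both are RefSeq promoter sequences of mouse build GRCm38.p6, read 5′ to 3′ on the gene's own strand, from 250 bases before the transcription start to 50 after it, and capitals mark CACGTG. The *Lamp1* window lies at chr8:13158911-13159210 on the + strand and the *Lamp2* window at chrX:38456411-38456710 on the - strand.
Lamp1: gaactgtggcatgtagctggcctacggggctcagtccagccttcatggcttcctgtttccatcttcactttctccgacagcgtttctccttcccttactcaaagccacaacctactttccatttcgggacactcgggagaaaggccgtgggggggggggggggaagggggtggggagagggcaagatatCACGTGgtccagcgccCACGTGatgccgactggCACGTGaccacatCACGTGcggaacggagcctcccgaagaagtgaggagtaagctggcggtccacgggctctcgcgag
Lamp2: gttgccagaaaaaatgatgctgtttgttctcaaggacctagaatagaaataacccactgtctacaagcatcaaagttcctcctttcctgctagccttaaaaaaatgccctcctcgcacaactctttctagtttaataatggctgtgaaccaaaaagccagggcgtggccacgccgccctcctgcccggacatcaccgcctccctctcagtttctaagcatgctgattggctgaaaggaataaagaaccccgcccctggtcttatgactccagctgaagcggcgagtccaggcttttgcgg
The *Lamp1* window held 4 matches, which began at -61, -45, -28 and -15 from the transcription start, and the *Lamp2* window held none. CACGTG reads the same on both strands. It stood in 7.15% of 32851 promoters of this length, and 4 or more matches stood in 8 of them (0.0244%). Of the 10 genes, 7 were in the promoter table. *Ctsf* had 1 match at -79, *Lgmn* had 1 at -49 in 1 of its 2 promoters, and *Cd68*, *Ctss* and *Grn* had none. *Vamp7*, *Epg5* and *Ctse* were not in the table. The longer palindrome TCACGTGA, which contains the E-box and stood in 0.974% of all promoters, was in none of these windows. The 14 other lysosomal genes described below were all in the promoter table. Of these, 5 had CACGTG: *Atp6v0e*, *Atp6v1a*, *Ifi30*, *Cln3* and *Igf2r*. None of the 5 was called higher in High against Low (calls are defined below), and *Atp6v0e* was called lower. *Man2b1*, *Plekhm1*, *Hps4* and *Vps4b*, which were called higher, had no match. All of these are matches of letters and were not tested against expression.

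The values are the deposited normalized signal, in which the reads of each gene were multiplied by one factor per sample that brings the geometric mean of 13 housekeeping genes to the same value. The High samples had 650965 to 1539936 reads in total, the Low samples 123798 to 157209 and the adult samples 137980 to 326575, so depth moved with the High group, and its part in the results was not tested. Background was the mean plus 2 SD of the 8 negative control probes, and 8 of the 10 genes were above it in all 11 samples. The exceptions were *Epg5*, above it in 1 of the 4 Low samples, and *Ctse*, above it in no Low sample and in 2 of the 3 adult samples. The 9 microglia markers examined were all above background in every High sample, 4 to 7 of them in a Low sample and 6 to 9 in an adult sample, with *P2ry12* and *Gpr34* in no Low sample. Their summed signal was 4397 to 5815 in High, 4161 to 4590 in Low and 4188 to 4616 in adult samples. Of 6 endothelial markers 4 were called higher in High than in Low, with sums of 622 to 1257 against 207 to 312, and of 9 T and NK cell markers 2 were, with sums of 321 to 1084 against 172 to 228. Of 5 astrocyte markers 2 were called higher, with sums of 1200 to 1925 in High against 546 to 792 in Low, of 6 neuron markers 2 were called higher and 2 lower, with sums of 207 to 420 against 176 to 259, and of the 9 microglia markers 5 were called higher. The border macrophage and monocyte list had 1 of 4 called higher, and no oligodendrocyte, B cell or neutrophil marker was called in High against Low. On the whole panel 28.2% of genes were called higher and 9.61% lower. No T and NK cell marker was above background in any Low sample. Nor were *Cldn5*, *Pecam1*, *Tie1*, *Flt1* and *Esam* of endothelium or *Rbfox3*, *Syp*, *Nefl*, *Slc17a7* and *Gria2* of neurons. The Low sums of these lists thus come largely from values not above background. Against the adult samples, of 3 neutrophil markers 1 was called lower in Low and 2 in High, with sums of 603 to 949 in adult samples against 283 to 423 in Low and 128 to 490 in High. *Ly6g* was above background in no adult sample either. In High against adult, 2 of 5 astrocyte markers were called higher (adult sums 418 to 646), 2 of 6 endothelial markers higher and 1 lower (286 to 413), and 2 of 9 T and NK cell markers higher (192 to 329). *Rbfox3* of neurons, *Tnfrsf13c* of B cells and *Cd163* of border macrophages were also called higher there. *Ms4a4a* and the oligodendrocyte marker *Ugt8a* were called lower, though above background in no High or adult sample. In Low against adult, *Mobp* of oligodendrocytes and *Ctsw* of T and NK cells were called lower. The panel shares against adult were 29.2% higher and 7.66% lower for High and 8.05% and 2.73% for Low. Of the 9 microglia markers, 3 were called lower in Low than in adult samples, and in High 2 were called higher and 2 lower. *Tie1*, *Cd8a*, *Klrb1*, *Gzma* and the neutrophil marker *Ly6g* were above background in no High sample. Whether these signals come from other cells, and the part of such cells in the results, was not tested.

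The first question was whether lysosomal transcripts differ between aged microglia with high and low ERK1/2 phosphorylation. Set against the Low samples, the High samples had 4 of the 10 genes called higher (*Lamp1*, *Vamp7*, *Epg5* and *Ctse*), 2 called lower (*Lgmn* and *Grn*) and 4 not called. With unequal variances 3 were called higher and 1 lower, without *Ctse* and *Lgmn*, and without High sample 5 it was 4 higher and 0 lower. The split moved with the scaling, to 6 higher and 0 lower with the 6 most stable housekeeping genes, 8 and 0 in unscaled reads, 8 and 0 with the positive controls alone, and 3 and 4 with the total signal. The panel of 770 genes moved too. It had 361 called higher and 4 lower with the 6 stable genes and 595 and 1 in unscaled reads. With the positive controls alone it had 658 and 0, and with the total signal 59 and 311. A call required a limma p below 0.01 together with a log2 fold change of more than 1 in either direction, on log2(value + 1), a scale that understates the change of low genes. On the whole panel 28.2% of the 770 genes were called higher and 9.61% lower, and at 10 genes the counts are not read as particular to the list. The median log2 fold change of the 10 genes was 0.59, and that of all 770 genes was 0.26. The groups did not overlap for 7 of the 10 genes, against 49.4% of the panel. In RNA pooled from many cells, fewer cells that carry a transcript and less of it per cell cannot be told apart.

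**Figure D1:**
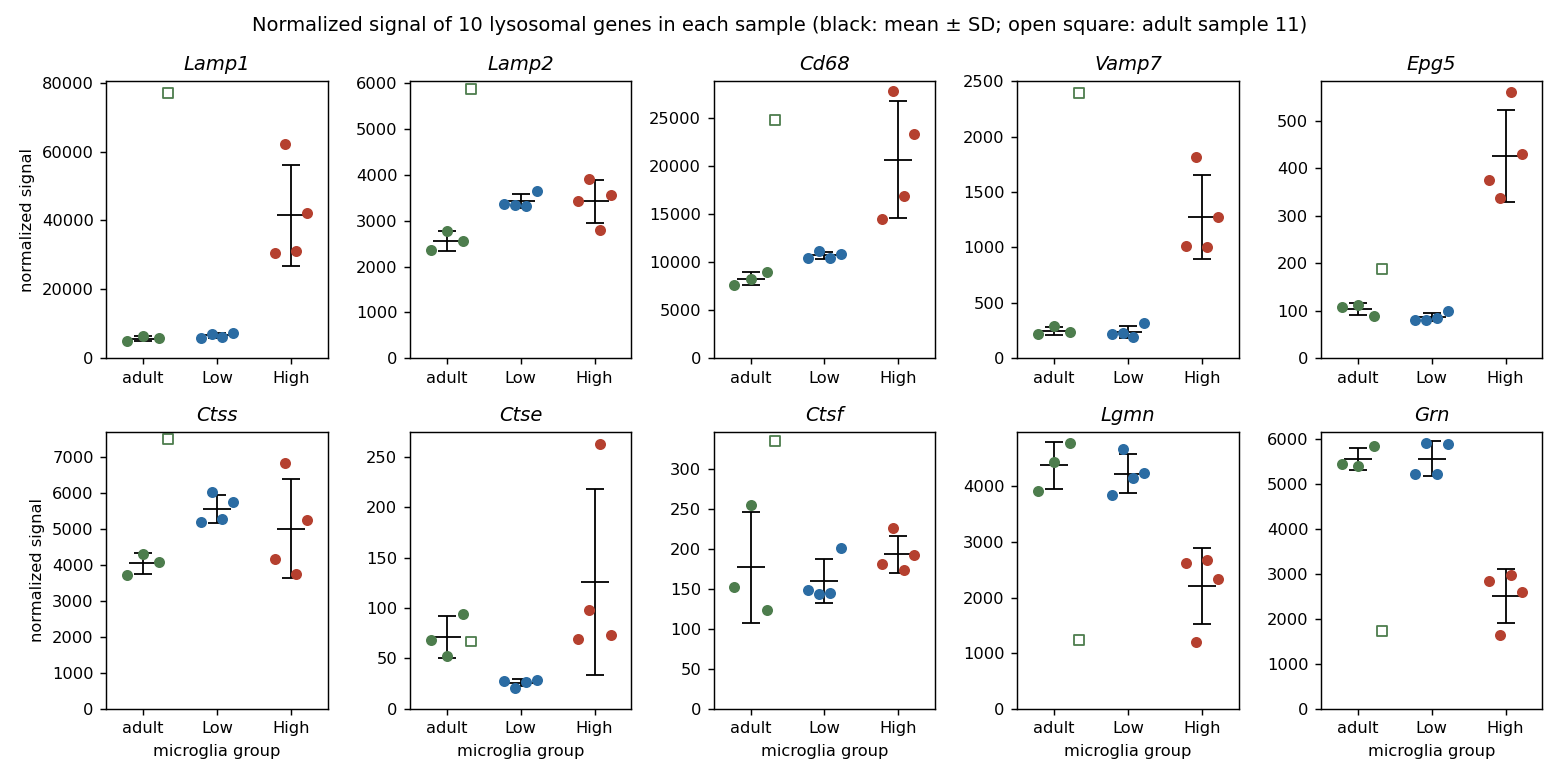
Normalized signal of each of the 10 genes (vertical axes, linear and starting at 0) in adult, Low and High microglia (sorted on P-ERK1/2). Filled points are samples, black bars are the mean ± SD over 3 adult, 4 Low and 4 High samples, and the open square is the excluded adult sample 11. The High points of *Lamp1*, *Vamp7* and *Epg5* all lie above every filled point of the other groups, and those of *Lgmn* and *Grn* all lie below them.

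*Lamp1* encodes one of the major glycoproteins of the lysosomal membrane. Its signal was 30641, 62085, 31092 and 42101 in High samples 2, 5, 7 and 8, 5933, 7148, 6166 and 7167 in Low samples 3, 6, 9 and 12, and 5010, 6319 and 5764 in adult samples 1, 4 and 10. Every High sample was more than 4 times above every Low and adult sample, and the Low and adult ranges overlapped. The means were 41480 ± 14724 in High (SD, n = 4) and 6604 ± 647 in Low (SD, n = 4). The fitted log2 fold change was 2.59, or 6.04-fold between the means of the log2 values (SE 0.26, adjusted p = 1.3e-05). By size of increase it ranked 22 among the 770 genes. It alone took 3.50% to 5.64% of all panel reads in the High samples, 1.38% to 1.56% in the Low samples and 1.57% to 1.69% in the adult samples.

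*Lamp2* encodes the sister glycoprotein, one of whose splice forms is the receptor of chaperone-mediated autophagy. The sources used here do not say which splice forms the probe reads. Its signal was 3425, 3906, 2788 and 3563 in High samples 2, 5, 7 and 8 and 3371, 3352, 3320 and 3655 in Low samples 3, 6, 9 and 12, and the 2 groups overlapped. The log2 fold change was -0.01 (SE 0.20, adjusted p = 0.96).

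*Cd68* encodes macrosialin, a LAMP-related glycoprotein of macrophages. Its signal was 14533, 27877, 16872 and 23411 in High samples 2, 5, 7 and 8 and 10490, 11197, 10431 and 10814 in Low samples 3, 6, 9 and 12. All High samples lay above all Low samples, and the spread was 29.5% of the mean in High and 3.28% in Low. The log2 fold change of 0.90 (SE 0.24, adjusted p = 0.0084) stayed below the fold limit, and without High sample 2 it was 1.05 and called. Of the membrane proteins, then, *Lamp1* was the one called.

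Both fusion factors rose. *Vamp7* encodes a SNARE of late endosomes and lysosomes. Its signal was 1016, 1813, 1006 and 1272 in High samples 2, 5, 7 and 8, 213, 231, 195 and 316 in Low samples 3, 6, 9 and 12, and 218, 289 and 232 in adult samples 1, 4 and 10. The High samples stood apart and the Low and adult samples overlapped. The log2 fold change against Low was 2.39 (SE 0.26, adjusted p = 2.1e-05), ranked 33 of 770.

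*Epg5* encodes a tether that is recruited by RAB7 and directs autophagosomes to lysosomes. Its signal was 376, 339, 560 and 431 in High samples 2, 5, 7 and 8 and 81.3, 80.6, 85.6 and 98.5 in Low samples 3, 6, 9 and 12. The log2 fold change was 2.27 (SE 0.22, adjusted p = 1.2e-05), with 23 to 32 reads per Low sample behind the lower side and only Low sample 9 above background. With each Low sample set to at least its background, the fold was at least 4.07. In adult samples 1, 4 and 10 *Epg5* was at 109, 112 and 89.0, above background in each and below every High sample.

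The 4 proteases did not move together. *Ctss* encodes cathepsin S, a cysteine protease that trims the invariant chain of MHC class II. Its signal was 4172, 6836, 3758 and 5234 in High samples 2, 5, 7 and 8 and 5177, 6023, 5278 and 5735 in Low samples 3, 6, 9 and 12. The groups overlapped, with a log2 fold change of -0.19 (SE 0.23, adjusted p = 0.51).

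*Ctsf* encodes cathepsin F, another cysteine protease. It was at 173 to 226 in High and 144 to 201 in Low, overlapping ranges with a log2 fold change of 0.28 (SE 0.21, adjusted p = 0.28). *Ctse* encodes cathepsin E, an aspartic protease of endosomes. It was at 69.4, 97.9, 263 and 73.5 in High samples 2, 5, 7 and 8 and at 27.1, 21.0, 26.8 and 28.7 in Low samples 3, 6, 9 and 12. All High samples were above all Low samples, but each Low sample held only 6 to 10 reads. The fitted log2 fold change was 2.02 (SE 0.37, adjusted p = 9.7e-04), while against the background of the Low samples the fold was at least 1.10. This gene varied most within High, with an SD of 73.2% of the mean, set by sample 7.

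*Lgmn* encodes legumain, an asparaginyl endopeptidase that activates several cathepsins. Its signal was 2622, 1199, 2679 and 2331 in High samples 2, 5, 7 and 8, 3835, 4680, 4152 and 4238 in Low samples 3, 6, 9 and 12, and 3925, 4430 and 4774 in adult samples 1, 4 and 10. Every High sample was below every Low and adult sample. The log2 fold change against Low was -1.002 (SE 0.27, adjusted p = 0.0090), at the very edge of the fold limit. Without High sample 5, which had the lowest value, it was -0.73 and not called. The call was also lost without Low sample 6 (-0.95) or 12 (-0.999) and with a pseudocount of 20 (-0.99).

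*Grn* encodes progranulin, a secreted protein that is delivered to lysosomes and cut there into granulins, and whose loss causes a lysosomal storage disease. Its signal was 2857, 1635, 2974 and 2595 in High samples 2, 5, 7 and 8, 5235, 5918, 5235 and 5891 in Low samples 3, 6, 9 and 12, and 5445, 5416 and 5843 in adult samples 1, 4 and 10. The Low and adult ranges overlapped and the High samples lay below both. The log2 fold change against Low was -1.18 (SE 0.24, adjusted p = 0.0016), and without High sample 5 it was -0.99 and not called.

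**Figure D2:**
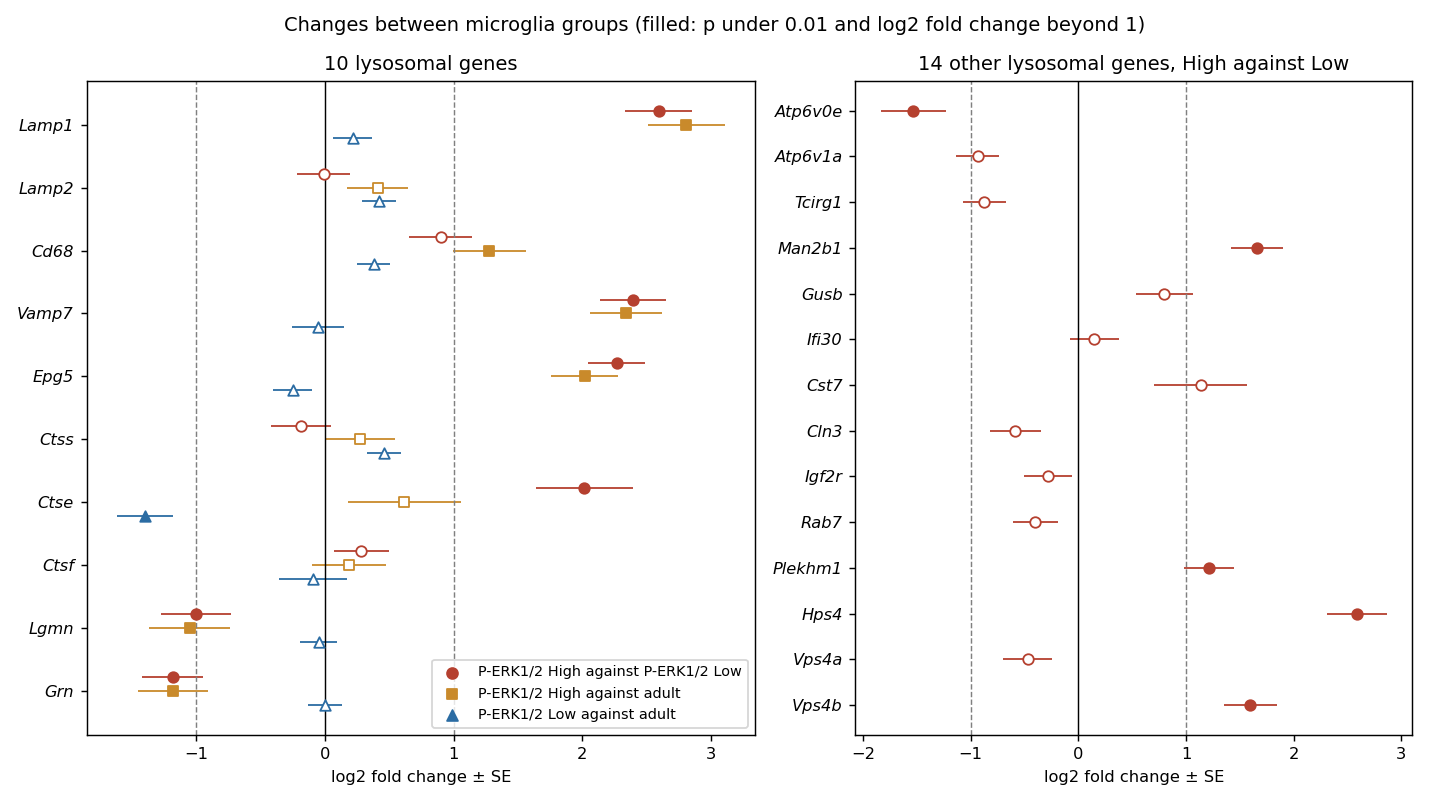
Log2 fold change ± SE (horizontal axes) of the 10 genes in the 3 comparisons (left) and of 14 other lysosomal genes in High against Low (right). Filled symbols were called, and dashed lines mark that fold limit. *Lamp1*, *Vamp7* and *Epg5* lie near or beyond 2 in both comparisons with High and near 0 in Low against adult.

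How far each change reaches depends on how samples are scaled. The housekeeping genes themselves ran from -1.23 for *Lars* to 3.34 for *Supt7l* between High and Low on the deposited scale, and the fall of *Lgmn* and *Grn* was of the size of that of *Lars*. Over 7 scalings, *Lamp1*, *Vamp7* and *Epg5* were called higher in each, with lowest values of 1.54, 1.37 and 1.25. *Ctse* was positive in each and called in 6. *Lgmn* and *Grn* were negative in 5 of the 7, but turned to 0.68 and 0.50 in unscaled reads and to 0.99 and 0.81 with the positive controls alone, and with the 6 most stable housekeeping genes they were at -0.23 and -0.41 and not called. Those 6 genes include *Lars*, and all were lower in High on the deposited scale, from -0.52 to -1.23. *Cd68* ran from -0.13 with the total signal to 2.89 with the positive controls. Expressed relative to the median of all 770 genes under the same scaling, the range was narrower: 1.65 to 2.45 for *Lamp1*, 2.03 to 2.23 for *Vamp7*, 1.97 to 2.07 for *Epg5*, -1.35 to -1.15 for *Lgmn* and -1.64 to -1.33 for *Grn*. For scalings that multiply each sample by 1 factor this closeness is arithmetic, because subtracting the median removes the factor, and it is no support. Only quantile normalization is of another kind, and it gave 1.65, 2.03, 1.97, -1.35 and -1.64 for these genes in that order. The *Epg5* values here are fitted ones, not bounds.

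**Figure D3:**
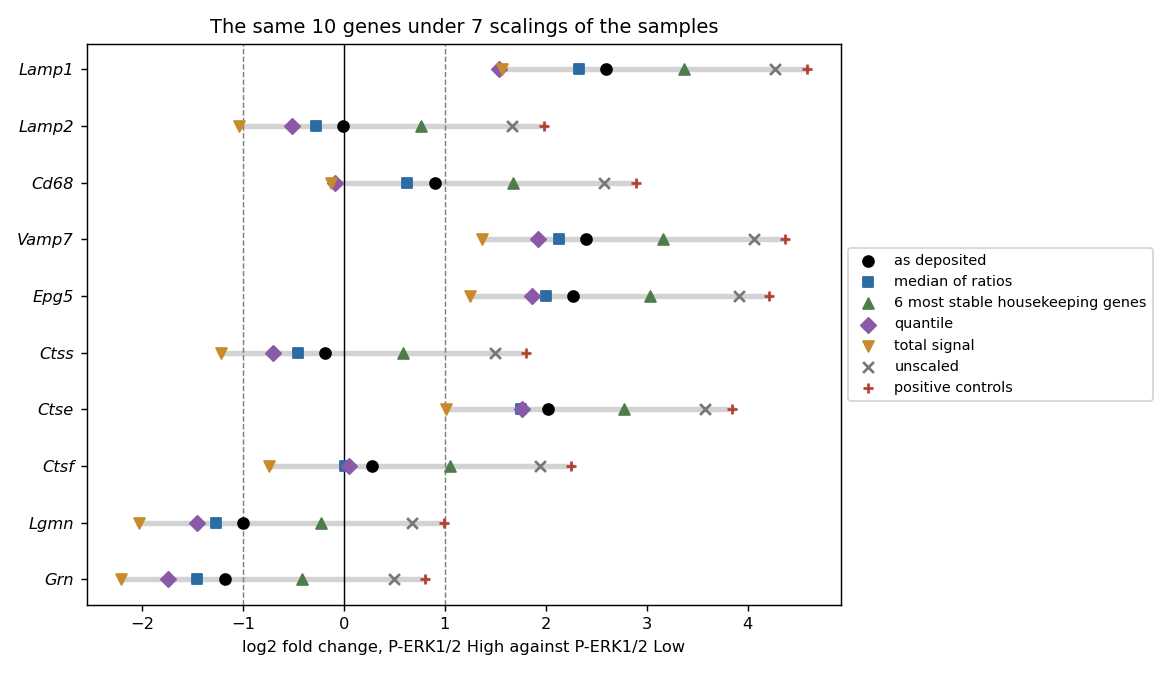
Log2 fold change of High over Low microglia (horizontal axis) of the 10 genes under 7 scalings of the samples, 1 symbol each, with grey bars from the lowest to the highest. The bars of *Lamp1*, *Vamp7*, *Epg5* and *Ctse* stay above 1, and those of *Lgmn* and *Grn* cross 0, from -2.03 to 0.99 and from -2.21 to 0.81.

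A ratio of 2 genes within a sample does not change when the sample is multiplied by a factor, apart from the small number added before taking logs. The size of such a ratio depends on the probes, so only its difference between groups was read. All 45 pairs of the 10 genes were compared between High and Low by an exact two-sided permutation test over the samples, for which 4 against 4 allows no p below 0.029. In 35 of the 45 pairs, against 49.0% of all 296065 pairs of panel genes, the groups did not overlap, each with the smallest p that 4 against 4 allows, 0.029 by the exact permutation test (Benjamini-Hochberg adjusted over the 45 pairs, 0.037). Leaving aside *Epg5* and *Ctse*, whose Low values were mostly not above background, it was 23 of 28 pairs. The 45 pairs share the same 10 genes and are not independent. Their count largely repeats the differences of the single genes and is not further support. The pairs named next were picked after their values were seen.

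The log2 ratio of *Lamp1* to *Lamp2* was 3.16, 3.99, 3.48 and 3.56 in High samples 2, 5, 7 and 8, 0.82, 1.09, 0.89 and 0.97 in Low samples 3, 6, 9 and 12, and 1.09, 1.18 and 1.18 in adult samples 1, 4 and 10. The High samples shared no range with these Low and adult samples, but excluded adult sample 11 stood at 3.71, within the High range. The difference of High from Low of 2.61 is a 6.08-fold change in the balance of the 2 transcripts (exact permutation p = 0.029, adjusted 0.037). *Lamp1* against *Grn* shifted the most of all pairs, by 3.78 on the log2 scale or 13.7-fold, from 0.18 to 0.28 in Low to 3.39 to 5.25 in High. For this pair sample 11 stood at 5.46, above every High sample. *Lamp2* against *Grn* shifted by 1.17 and *Ctss* against *Lgmn* by 0.81, both without overlap. Without High sample 5, which had the highest *Ctss* to *Lgmn* ratio, that last shift was 0.38, and that of *Lamp2* against *Grn* was 0.91.

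The 10 overlapping pairs included those of genes that moved alike. *Lamp1* to *Vamp7* differed by 0.20 between High and Low (exact permutation p = 0.14, adjusted 0.16), with 4.91 to 5.10 in High and 4.50 to 4.97 in Low. *Lgmn* to *Grn* differed by 0.18 (exact permutation p = 0.086, adjusted 0.10), with -0.45 to -0.12 in High and -0.48 to -0.33 in Low. *Lamp2* to *Ctss* differed by 0.18 (exact permutation p = 0.20, adjusted 0.23). A p that misses the threshold at this sample size does not show that these ratios were equal.

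**Figure D4:**
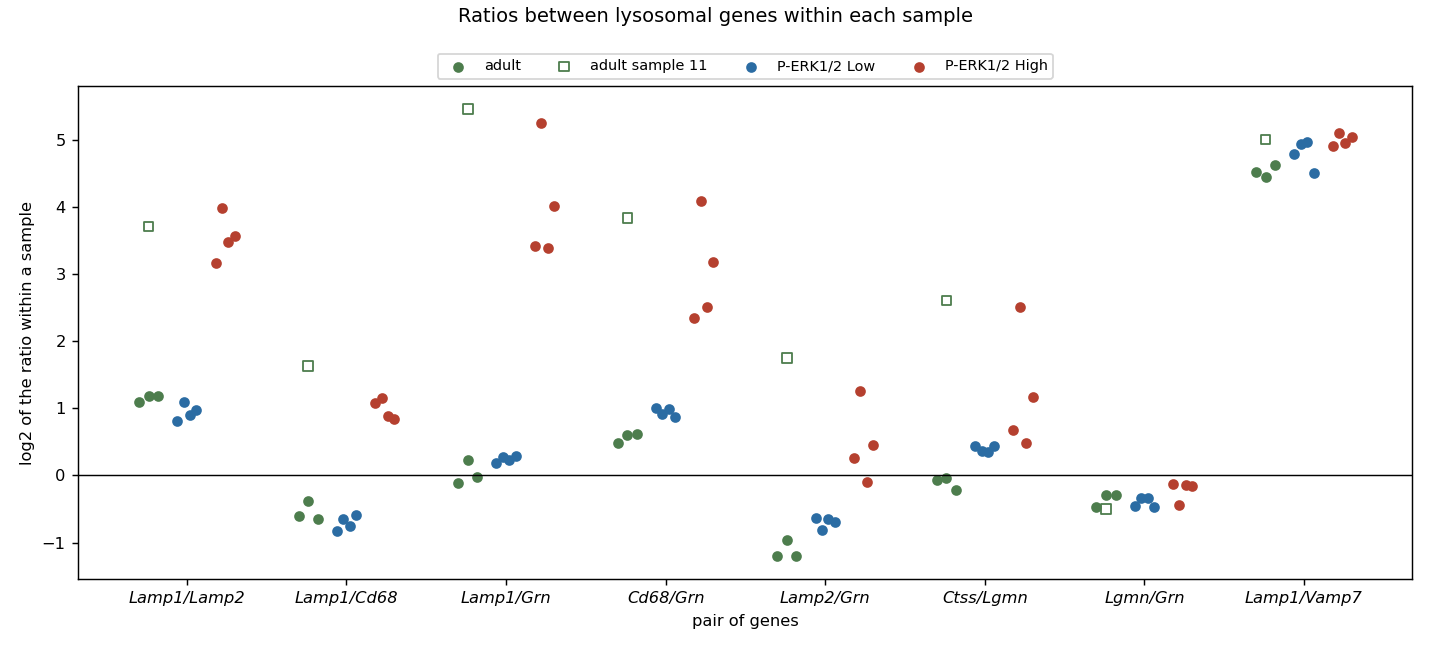
Log2 ratio of the normalized signals of 8 pairs of lysosomal genes within each sample (vertical axis), by group. Points are single samples and open squares are the excluded adult sample 11. The *Lamp1*/*Lamp2* points lie at 3.16 to 3.99 in High, 0.82 to 1.09 in Low and 1.09 to 1.18 in adult samples, whereas the *Lgmn*/*Grn* and *Lamp1*/*Vamp7* points of High and Low overlap.

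The High samples differed among themselves more, by SD over mean, than the Low samples did in 9 of the 10 genes, the exception being *Ctsf*. High sample 5, the most deeply read, held the highest value of *Lamp1*, *Lamp2*, *Cd68*, *Vamp7*, *Ctss* and *Ctsf* and the lowest of *Epg5*, *Lgmn* and *Grn*. Sample 7 held the highest value of *Epg5* and *Ctse*, and also of *Lgmn* and *Grn*. The deepest High sample was thus the one with the most *Lamp1* and the least *Grn*, and the part of depth in this was not tested.

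The second question was whether aged microglia with low ERK1/2 phosphorylation differ from adult microglia. Of the 10 genes none was called higher, against 8.05% of the panel, and 1 was called lower, *Ctse*, against 2.73%. The groups did not overlap for 4 of the 10, against 36.5% of the panel, and the median log2 fold change was -0.03 against 0.10 for all genes. *Ctse* was at 68.1, 52.4 and 93.9 in adult samples 1, 4 and 10 and lower in each Low sample, a fitted log2 fold change of -1.40 (SE 0.22, adjusted p = 0.0036). No Low sample was above background, nor was adult sample 1, and the adult level was 0.71 of the background of the Low samples, so the size of this difference was not measurable at this depth. With a pseudocount of 20 the call was lost, at -0.97.

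Small shifts in one direction were seen in 3 further genes, none of them past the fold limit. *Ctss* was at 3730, 4300 and 4089 in adult samples 1, 4 and 10, below all Low samples, with a log2 fold change of 0.46 (SE 0.13, adjusted p = 0.040). *Lamp2* was at 2357, 2783 and 2547 in adult samples 1, 4 and 10, also below all Low samples, with 0.42 (SE 0.13, adjusted p = 0.049). *Cd68* was at 7605, 8226 and 9008 in adult samples 1, 4 and 10, with 0.38 (SE 0.13, adjusted p = 0.070). All 3 turned negative in unscaled reads and with the positive controls alone. *Grn*, *Lgmn*, *Vamp7* and *Ctsf* were within 0.10 of 0 on the log2 scale, *Lamp1* was at 0.21 and *Epg5* at -0.25, each with overlapping groups.

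P-ERK1/2 High was also compared with adult microglia. This comparison shares its samples with the previous ones, so its values are given side by side with them and not as further support. *Lamp1* (2.81, SE 0.30, adjusted p = 7.0e-05), *Vamp7* (2.34, SE 0.28, adjusted p = 1.1e-04), *Epg5* (2.02, SE 0.26, adjusted p = 1.4e-04) and *Cd68* (1.28, SE 0.28, adjusted p = 0.0042) were called higher, against 29.2% of the panel. *Grn* (-1.18, SE 0.27, adjusted p = 0.0051) and *Lgmn* (-1.05, SE 0.32, adjusted p = 0.019) were called lower, against 7.66% of the panel. The *Lgmn* call was lost without adult sample 1, 4 or 10 or High sample 5 or 8, at -1.13 to -0.78, and the *Grn* call without High sample 5, at -0.99. With the total signal as the scale 1 of the 10 genes was called higher, *Lamp1* at 1.39, and 5 lower, and *Vamp7* (0.92) and *Epg5* (0.61) were not called. Over the 7 scalings *Cd68* was called higher in 4, being 0.89 with median-of-ratios, -0.63 with quantile normalization and -0.14 with the total signal. *Lgmn* and *Grn* were each called lower in 4 of the 7, and stood at -0.34 and -0.47 with the 6 most stable housekeeping genes, -0.23 and -0.36 in unscaled reads and 0.12 and -0.0088 with the positive controls alone. The groups did not overlap for 7 of the 10 genes, against 50.3% of the panel. *Lamp2*, *Ctss*, *Ctse* and *Ctsf* were not called, at 0.41, 0.27, 0.62 and 0.19.

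The adult side of this comparison rests on leaving out sample 11. In that sample *Lamp1* was at 76923, *Vamp7* at 2391, *Lgmn* at 1231 and *Grn* at 1741, on the side of the High samples for each, while *Epg5* at 188 lay between the other adult samples and the High samples and *Ctse* at 66.7 lay within the other adult samples. *Lamp1* and *Vamp7*, and also *Lamp2* (5872), *Ctss* (7507) and *Ctsf* (335), lay above every High sample in sample 11. Its total of 1464449 reads was in the range of the High samples. The geometric mean of its positive controls was 286, against 954 to 1244 in High, 1149 to 1460 in Low and 1181 to 1455 in the other adult samples. With sample 11 added, *Epg5* at 1.80 was the only one of the 10 genes still called between High and adult microglia. *Lamp1* at 1.87 and *Vamp7* at 1.52 stayed past the fold limit and missed the p limit, while *Cd68* (0.88), *Lgmn* (-0.59) and *Grn* (-0.76) were within the fold limit. Between Low and adult microglia, where *Ctse* stayed called, *Lgmn* and *Grn* then stood at 0.41 and 0.42.

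The order of the group means differed between genes. *Lamp1* and *Cd68* were highest in High and lowest in adult microglia, but the Low and adult levels of *Lamp1* overlapped. The means of *Vamp7* and *Epg5* were highest in High, and their adult and Low samples overlapped. *Ctse* was lowest in Low, and its High and adult samples overlapped. For *Ctsf* all 3 groups overlapped one another, so no order is given. *Lamp2* and *Ctss* were highest in Low and lowest in adult microglia, with Low and High overlapping, and for *Ctss* High overlapped adult as well. *Lgmn* and *Grn* were lowest in High, and their adult and Low levels overlapped.

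A further 14 lysosomal genes of the panel were described. In High against Low 4 of the 14 were called higher and 1 lower, shares near those of the panel (28.2% and 9.61%), with a median log2 fold change of -0.066 against 0.26 for all genes. The proton pump, which acidifies the lumen, had its subunit gene *Atp6v0e* called lower (-1.53, SE 0.30, adjusted p = 0.0014). *Atp6v1a* (-0.94) and *Tcirg1* (-0.87), 2 further pump subunits, lay without overlap below Low but inside the fold limit. The pump genes are given on the deposited scale only, on which the housekeeping genes *Lars*, *Cnot10* and *Ccdc127* stood at -1.23, -0.81 and -0.77.

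Among the luminal enzymes, *Man2b1*, a lysosomal alpha-mannosidase, was called higher (1.66, SE 0.24, adjusted p = 1.9e-04). *Ifi30* and *Gusb* were not called, at 0.15 and 0.80, and *Gusb* is also one of the housekeeping genes used for scaling. Among 7 genes of membrane and traffic, *Hps4*, a subunit of a complex that makes lysosome-related organelles, had a fitted value of 2.59 (SE 0.28, adjusted p = 2.1e-05), and because no Low sample was above background its fold is given as at least 3.40. *Vps4b*, an ATPase of the ESCRT machinery, was at 1.60 and *Plekhm1*, an adaptor for lysosome fusion, at 1.21, both called, while *Vps4a*, *Rab7*, *Cln3* and *Igf2r* were not called. The cystatin *Cst7* was above background in no Low or adult sample.

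Against adult microglia, *Man2b1* (2.23), *Hps4* (2.19), *Vps4b* (1.69) and *Gusb* (1.47) were called higher in High and none of the 14 was called lower, against 29.2% and 7.66% of the panel. The value of *Hps4* is a fitted one, since only 2 of the 3 adult samples were above background, and with each adult sample set to at least its background the fold was at least 3.93. In Low against adult only *Cst7* was called, lower, at levels below background in both groups.

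On the deposited scale *Lamp1* had the largest rise and *Grn* the largest fall in High against Low among the 10 genes. Over the 11 samples, likeness was measured by the root mean square distance of mean-centred log2 values. The most similar panel genes were found for *Lamp1*, *Grn* and *Lamp2*. For *Lamp1* these were *Ppp3r1* (0.15), *Msn* (0.18) and *Rala* (0.22), a calcineurin subunit, moesin and a small GTPase. For *Grn* they were *Ikbkg* (0.085), *Tarbp2* (0.12) and *Lgmn* (0.13), so a second member of the list was among its nearest. For *Lamp2* they were *Ctss* (0.15), *Ltbr* (0.16) and *Ptms* (0.16), again with a member first. These likenesses are descriptions over samples that share one scaling factor each.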

How the data were processed

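The NanoString nCounter Neuroinflammation panel was read for 12 samples of sorted microglia (757 endogenous and 13 housekeeping genes, 8 negative and 6 positive controls). The deposited values are normalized signal that the authors obtained with nSolver, version not given in the sources used here. Gene values equalled reads times 1 factor per sample (99.8% whole to within 0.1 after division), control rows held unscaled counts, and no background was subtracted. Depth was 123798 to 1539936 reads in the 11 samples compared.

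Groups followed the labels. Each comparison used limma 3.58.1 (R 4.3.3) on log2(value + 1) of its groups alone, unfiltered, with genes called where p was below 0.01 and the log2 fold change exceeded 1 in size, the study's thresholds, and Benjamini-Hochberg adjustment over 770 genes. Ratios within samples used scipy 1.17.1. The fit was also run on simulated data, and as the outcome is not given here it is not used as support. The limma p-values set a group difference against the spread within groups, moderated over the 770 genes. Each sample pools a male and a female mouse, so this spread is between pools and not between single animals. The genes, lists and alternatives were chosen with earlier results of these data known. Named were the 10 genes, 14 other lysosomal genes (1 more of that list is not reported here), markers and housekeeping genes where described, and the 3 most similar genes. Pseudocounts, filters, scalings, tests and omitted samples were varied. Protein sequences were not used here.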

Additional observations from a re-analysis of the deposited data

Results flagged for a closer look

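Single samples were compared with the rest of their group of 4 by Dixon's gap over range on the log2 scale, in 30 groups of values (10 genes in P-ERK1/2 High, P-ERK1/2 Low and adult with sample 11), where chance flags about 1 in 20. The 7 values beyond the critical value fell on 2 samples. Adult sample 11, excluded by its label, stood apart with 76923 for *Lamp1*, 24871 for *Cd68* and 2391 for *Vamp7*, above the other adult samples, and with 1231 for *Lgmn* and 1741 for *Grn*, below them. P-ERK1/2 Low sample 12 stood apart with 3655 for *Lamp2* and 201.01 for *Ctsf*, above the other Low samples. The cause was not tested.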

How the results depend on the processing

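The Low samples had as few as 123798 reads. *Ctse*, *Epg5* and *Hps4* in P-ERK1/2 Low rested on 6 to 10, 23 to 32 and 12 to 22 reads per sample. Of these values only that of *Epg5* in Low sample 9 was above background. The panel median between High and Low moved from 0.26 as deposited to 1.02 with the 6 most stable housekeeping genes, -0.01 with median-of-ratios, -0.11 with quantile normalization, 1.86 unscaled, 2.13 with the positive controls and -0.76 with the total signal. The last 2 and the subtraction of negative controls were added after seeing the data. The edgeR fit planned for recovered reads was not run. No paired analysis was possible because it is not stated whether a High and a Low sample came from the same animals. The tests treat the samples as independent. The cause of the changes below was not tested.

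For High against Low the direction changed as follows. *Lamp2* was 0.76 with the 6 stable genes, 1.67 unscaled, 1.98 with the positive controls, and -0.079 to 0.084 with single samples left out (above 0 without High sample 7 or Low sample 12). *Cd68* was -0.091 with quantile normalization and -0.13 with the total signal. *Ctss* was 0.58, 1.49 and 1.80 with the 6 stable genes, unscaled and with the positive controls. *Ctsf* was -0.74 with the total signal. *Lgmn* was 0.68 unscaled and 0.99 with the positive controls, and *Grn* 0.50 and 0.81. The calls of *Lamp1*, *Vamp7* and *Epg5* held under every alternative run for this comparison.

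For Low against adult, *Lamp1* was -0.19 with quantile normalization, -0.64 unscaled, -0.73 with sample 11, -0.60 with the positive controls and -0.17 with the total signal. *Cd68* was -0.41, -0.48, -0.020, -0.44 and -0.011 under these. *Lamp2* was -0.43 unscaled and -0.39 with the positive controls, and *Ctss* -0.047, -0.40 and -0.36 with quantile normalization, unscaled and with the positive controls. With negative controls subtracted, *Vamp7* was 0.097, *Ctsf* 0.017, *Lgmn* 0.19 and *Grn* 0.24. With sample 11, *Lgmn* was 0.41 and *Grn* 0.42. With single samples left out, *Vamp7* ran from -0.20 to 0.063, *Ctsf* from -0.32 to 0.20, *Lgmn* from -0.13 to 0.016 and *Grn* from -0.031 to 0.034.

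For High against adult, quantile normalization gave -0.46 for *Lamp2*, -0.63 for *Cd68*, -0.73 for *Ctss* and -0.28 for *Ctsf*, and the total signal -1.01, -0.14, -1.15 and -1.22, with *Ctse* at -0.78. Median-of-ratios gave *Ctss* -0.12 and *Ctsf* -0.20, *Ctsf* was -0.059 with sample 11 and -0.035 to 0.48 with single samples left out (below 0 without adult sample 10), and *Lgmn* was 0.12 with the positive controls.

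The 10 genes' calls between Low and adult went from 1 to 0 with a pseudocount of 20, a mean filter of 50 (which removes *Ctse*) or unequal variances, and to 2 unscaled or with the positive controls. Between High and adult they went from 6 to 1 with sample 11. Over the panel, High against Low had 291 calls, 596 unscaled, 658 with the positive controls and 189 with unequal variances. Low against adult had 83, and 240, 221 and 54 under these, 34 with sample 11 and 144 with negative controls subtracted. High against adult had 284, 173 with unequal variances and 49 with sample 11. The share of calls that were higher in High against Low, 74.6% as deposited, was 98.9% with the 6 stable genes, 58.4% with median-of-ratios, 51.5% with quantile normalization, 99.8% unscaled and 15.9% with the total signal. In Low against adult it was 74.7%, and 64.6%, 59.5%, 3.33%, 3.62% and 28.9% with median-of-ratios, quantile normalization, unscaled, the positive controls and the total signal.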
